A study of Mus musculus with 64 samples.

Results

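Microglia of adult mice labelled RISP Het were compared between cuprizone treatment and the naive state. RISP is the Rieske iron-sulfur protein of respiratory complex III, encoded by Uqcrfs1, and Het is taken as the label gives it. Cuprizone is a copper chelator that is fed to mice to kill oligodendrocytes and strip myelin. The comparison holds 11 of the 64 libraries of the series, namely all 4 Het cuprizone adult libraries (replicates 1 to 4) and the 7 Het naive adult libraries numbered 5 to 11. These 7 were taken as the library batch nearest to the cuprizone libraries, and fits with all 13 naive Het libraries served as alternatives. Each library was made from total RNA of CD11b and CD45.2 stained cells sorted from whole brain. A CreERT2 transcript was counted in all 11 libraries of both groups, at 234 to 412 CPM of the library total. Dose, day of cuprizone, sex and whether replicates are separate animals are not given in the labels, and p-values therefore measure only the spread between these samples, which may be technical.

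Microglia are the resident macrophages of the brain. In the cuprizone model they take up myelin debris, and a damage-associated set of genes that includes Apoe, Spp1, Lpl and Gpnmb is known to rise in them. Cells under stress raise further sets of genes with different sensors: misfolded protein releases the heat shock factor HSF1, which turns on cytosolic chaperones, while the integrated stress response raises ATF4, CHOP and GADD34. Immediate early genes such as Fos and Jun respond within minutes to many signals, and NF-kB turns on chemokines and cytokines.

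The 4 cuprizone libraries held 2695432 to 3657793 counts and the 7 naive libraries 6379348 to 11694165. These ranges do not overlap, so treatment cannot be told apart from depth or from a library batch that goes with it. All levels below are CPM, counts relative to a library total that was scaled by the trimmed mean of M values (TMM), and fold changes are log2 values of cuprizone against naive with their standard error. A gene passed when its Benjamini-Hochberg adjusted p in edgeR's quasi-likelihood test over all tested genes was under 0.05. Counts on 4 Y-linked genes showed that cuprizone 1 and 2 and naive 7 to 11 came from males, and cuprizone 3 and 4 and naive 5 and 6 from females. The share of counts on the non-coding RNAs Gm26917 and Yam1 was 4.55% and 3.62% in cuprizone 1 and 2, 2.22% and 2.35% in cuprizone 3 and 4, and 3.59% to 5.72% in the naive libraries. Within the cuprizone group, sex and this share cannot be told apart.

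Of 12604 genes tested, 426 passed (3.38%), of which 311 were higher under cuprizone (2.47%) and 115 lower (0.912%). These shares are the background for every count of list members given below. The median log2 fold change over all tested genes was -0.04. In 240 of the 311 higher genes all 4 cuprizone libraries lay above all 7 naive libraries, and in 90 of the 115 lower genes all 4 lay below. Over all tested genes, the shares were 3.14% above and 2.05% below. With the counts thinned to the smallest library total, 310 genes passed, 243 higher and 67 lower, and 283 of them were among the 426. Without cuprizone 3 and 4 the number was 71, and without cuprizone 1 and 2 it was 183. Leaving out single libraries lowered it by over 1.5 times for cuprizone 1 (190), 3 (177) and 4 (191) and for naive 5 (271), 7 (266) and 8 (282). Of 54 genes named by rule, 39 rose and 15 fell. Without cuprizone 3 and 4, 8 of the 39 rises still passed, those of Hspa1a, Hspb1, Hsp90aa1, Dnajb1, Ppp1r15a, Jun, Hmox1 and Csf3r, and none of the 15 falls. Without cuprizone 1 and 2, 35 of the rises passed and 1 of the falls, that of Rn7s6. Among called genes with a mean log2 CPM of at least 3, the largest rises were those of the chaperone genes Hspa1b, Hspa1a and Hspb1, then Ece1, Rpp40, Ccl4, Gadd45b and Ppp1r15a.

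The cells carried the markers of microglia in both groups. P2ry12, the purinergic receptor that defines resting microglia, stood at 2361, 1938, 2305 and 1874 CPM in cuprizone 1 to 4 and between 2122 and 2481 in the naive libraries (median 2305; log2 fold change -0.13 ± 0.10, adjusted p = 0.544). Csf1r, the receptor that microglia need to survive, was at 5724 to 5945 CPM under cuprizone and 5588 to 7557 in the naive libraries. Uqcrfs1 was at 11.6 to 13.9 CPM under cuprizone and 9.34 to 18.4 CPM in the naive libraries, with a log2 fold change of -0.15 ± 0.23 (adjusted p = 0.78).

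Chaperones led the rises among called genes with a mean log2 CPM of at least 3. Of 23 heat shock genes tested, 10 rose and none fell, 9 of them cytosolic and Hspa5 of the ER, with a list median of 0.63 against -0.04 for all genes. Hspa1a (chr17:34969190-34972156, minus strand, GRCm38), an Hsp70 that is nearly silent until cells are stressed, was at 2815, 2480, 1324 and 1176 CPM in cuprizone 1 to 4. The naive libraries held 25.4 to 144 CPM of it with a median of 56.5. The groups did not overlap, and the lowest cuprizone library lay far above the highest naive one (log2 fold change 4.69 ± 0.42, adjusted p = 0.000246). Its neighbour Hspa1b (chr17:34956436-34959238, minus strand) was at 2633, 2825, 1374 and 982 CPM against 1.1 to 168 CPM, with a median of 11.5 in the naive libraries (5.80 ± 1.07, adjusted p = 0.0126). Of the 50-base stretches of the Hspa1a transcript, 58.8% also occur in that of Hspa1b, so reads of the pair may have been divided between them by the counting, and the 2 rises are not independent.

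The small heat shock protein gene Hspb1 was at 104, 39.2, 30.3 and 34.9 CPM in cuprizone 1 to 4, while no naive library exceeded 5.28 CPM (3.99 ± 0.57, adjusted p = 0.00408). Hsp90aa1, the inducible Hsp90, was at 2433, 1444, 1139 and 1150 CPM against 297 to 465.6 CPM (median 396) in the naive libraries, again without overlap (1.99 ± 0.20, adjusted p = 0.000432). Dnajb1, the Hsp40 partner of Hsp70, was at 251 to 327 CPM against 54.0 to 114 CPM (1.73 ± 0.18, adjusted p = 0.00054). Hspa8, the constitutive Hsp70, rose by 1.36 ± 0.21, and Hsp90ab1, the constitutive Hsp90, by 1.22 ± 0.24. Hsph1, an Hsp110 exchange factor, rose by 2.55 ± 0.55, although naive 11 at 174 CPM overlapped with cuprizone 4 at 168 CPM. Naive 11 was also the highest naive library for Dnaja1 (228 CPM against 84.9 to 139 CPM in the other 6). The same held for Hspa1a, Hspa1b, Hspa8, Hsp90ab1 and Hspa5, but not for Hspb1, Hsp90aa1 or Dnajb1. Over the tested heat shock genes, the mean log2 CPM was 6.895 in naive 11 and 5.69 to 6.16 in the other 6. Under cuprizone it was 7.26 to 7.70. The cause of the high values in naive 11 was not tested. The mitochondrial chaperones Hspd1 (0.24 ± 0.23, adjusted p = 0.629) and Hspe1 (0.69 ± 0.27, adjusted p = 0.195) did not pass. Neither did Bag3 (0.63 ± 0.25, adjusted p = 0.207), a co-chaperone, nor Hsf1 itself (0.56 ± 0.19, adjusted p = 0.13).

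In 7 of the 10 chaperones that rose, both male cuprizone libraries lay above both female ones, where 21.2% of all tested genes had that order. Even so, 4 chaperones passed without cuprizone 3 and 4 and 5 without cuprizone 1 and 2. Hspa1a passed without either pair, at 5.14 with cuprizone 1 and 2 alone and at 4.06 with cuprizone 3 and 4 alone. Hsp90aa1 did too, at 2.33 and 1.57. Hspa1b did not pass without either pair (adjusted p = 0.0525 and 0.0761), nor with all 13 naive Het libraries (2.96, adjusted p = 0.128). Hspb1 passed without either pair but not with all 13 naive Het libraries (2.37, adjusted p = 0.0944).

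The 150 bases before the start sites of the 3 chaperones with the largest rises are printed because a heat shock element is the binding site of HSF1 (RefSeq, GRCm38.p6, gene strand). Capitals mark GAANNTTC, a pair of the element's repeated units, which reads the same on both strands. This shorter motif was added after the full heat shock element of consecutive units had been found in 0 of the 50 windows of named genes that rose.
Hspa1a: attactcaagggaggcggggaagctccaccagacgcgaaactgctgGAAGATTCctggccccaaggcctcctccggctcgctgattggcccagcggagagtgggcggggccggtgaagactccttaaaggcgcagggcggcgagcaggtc
Hspa1b: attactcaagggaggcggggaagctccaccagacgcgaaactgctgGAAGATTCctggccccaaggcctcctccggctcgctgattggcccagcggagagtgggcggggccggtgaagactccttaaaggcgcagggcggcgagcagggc
Hspb1: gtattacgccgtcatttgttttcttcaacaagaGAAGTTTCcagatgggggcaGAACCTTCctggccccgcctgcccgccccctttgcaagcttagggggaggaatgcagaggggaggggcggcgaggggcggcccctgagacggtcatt
The windows are chr17:34972157-34972306 (minus), chr17:34959239-34959388 (minus) and chr5:135887769-135887918 (plus). Hspa1a and Hspb1 lie on different chromosomes, and the Hspa1a and Hspa1b windows are identical at 149 of 150 bases. GAANNTTC stands at bases 104 to 97 before the start in both, and at 2 places before Hspb1. In the 250 bases before the start it occurs in 6 of the 50 windows, those of Jun, Nfkbid and Rpp40 included, and in 6.69% of all 32851 RefSeq windows. The other spacing, TTCNNGAA, occurs in 3 of 50 and in 7.17% of all, and the full element in 0.466% of all. A match is a description of these letters only.

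**Figure D1:**
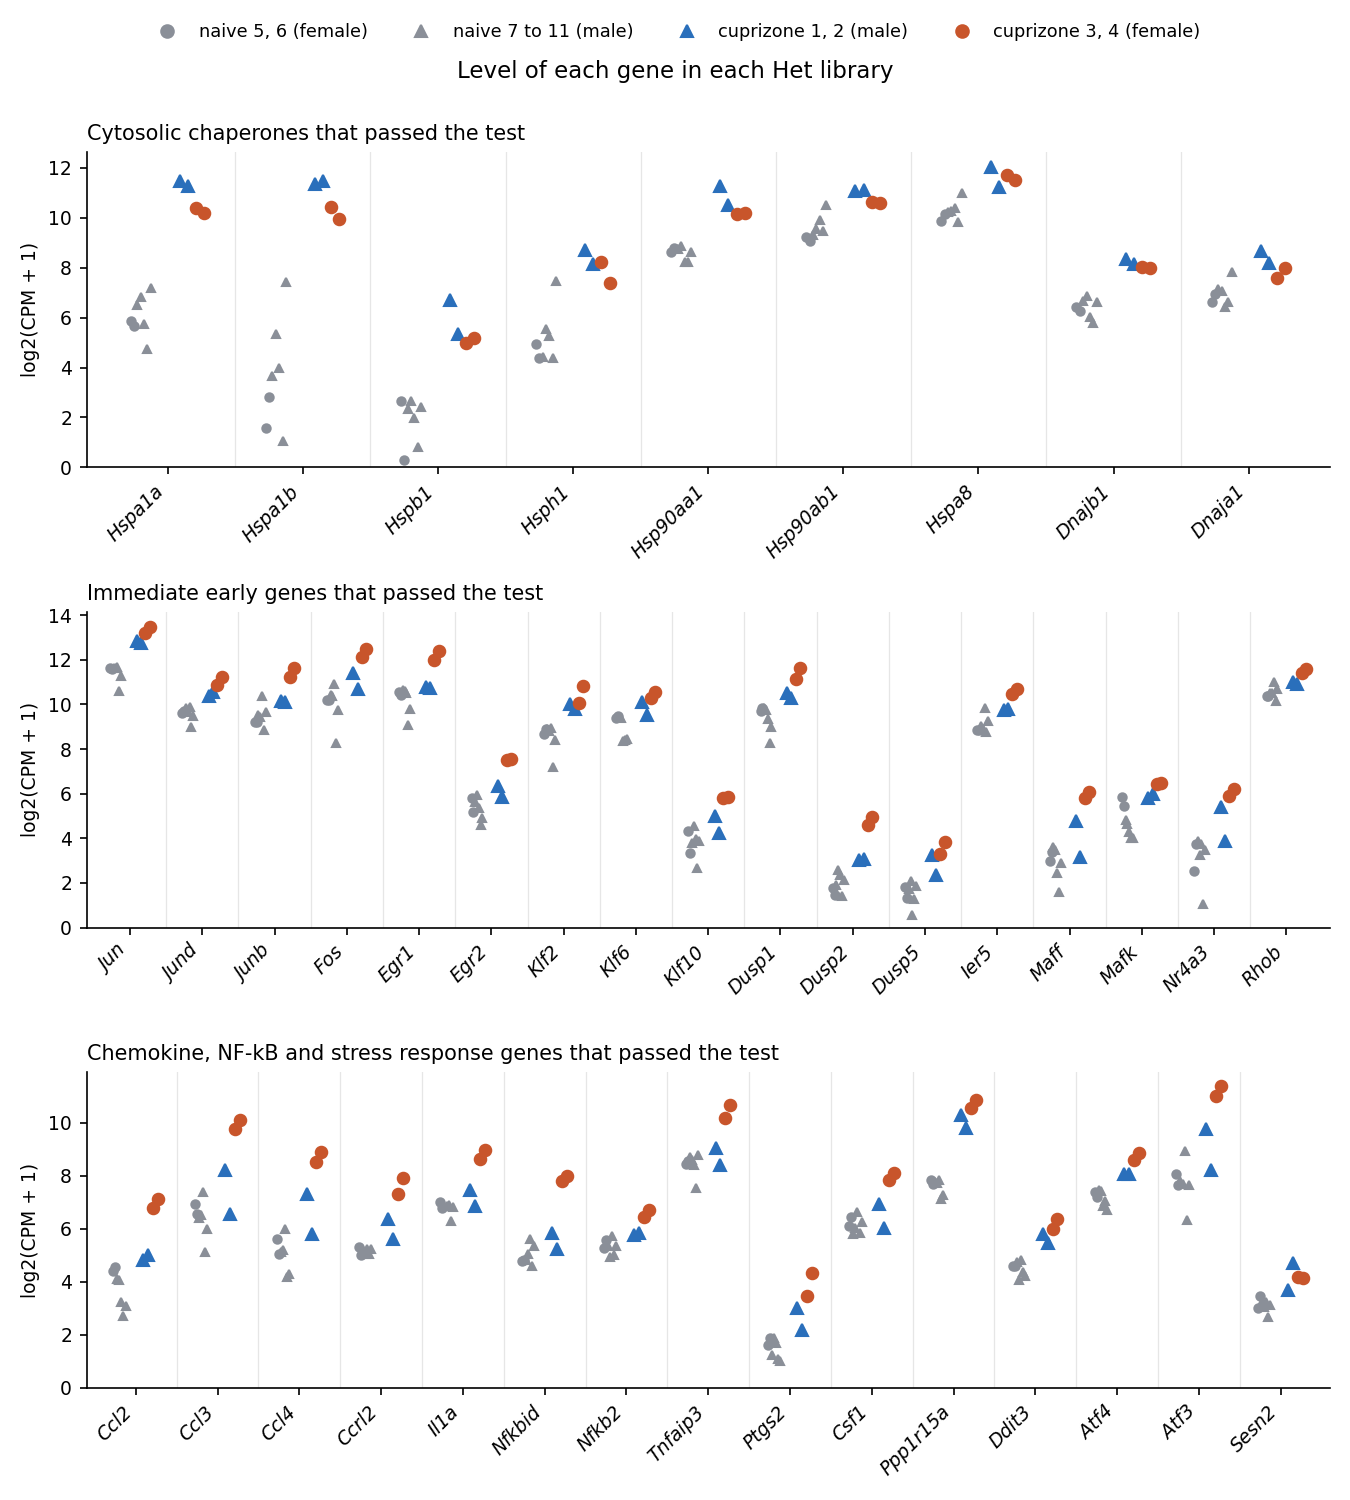
Each point is 1 Het library, with log2(CPM + 1) on the vertical axis and the genes that passed in 3 functional sets along the horizontal axes. Grey marks the 7 naive libraries, blue triangles cuprizone 1 and 2 (male) and orange circles cuprizone 3 and 4 (female); the blue points are the higher ones for Hspa1a, Hspa1b and Hsp90aa1, the orange ones for the immediate early genes.

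Genes of the integrated stress response rose in part. In this response, phosphorylation of eIF2 slows translation and lets ATF4 accumulate. Of 33 members tested, 5 rose and none fell, with a median of 0.23. Ppp1r15a (chr7:45522916-45526268, minus strand), which encodes the phosphatase subunit GADD34 that reverses eIF2 phosphorylation, had the smallest adjusted p in the comparison. It was at 1272, 896, 1496 and 1865 CPM in cuprizone 1 to 4 and at 138 to 226 CPM (median 212) in the naive libraries (2.81 ± 0.19, adjusted p = 1.96e-05). It passed without either pair of cuprizone libraries, with 2.46 and 3.10.

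Ddit3, the gene of the transcription factor CHOP, was at 54.3, 43.4, 62.9 and 81.1 CPM against 15.7 to 27.6 CPM (1.47 ± 0.20, adjusted p = 0.0028). Atf4 was at 271, 270, 383 and 460 CPM against 105 to 178 CPM (1.26 ± 0.18, adjusted p = 0.00452). Both sets of values were free of overlap, but neither gene passed without cuprizone 3 and 4 (adjusted p = 0.0646 for Ddit3 and 0.0884 for Atf4). Atf3, which many stress signals induce, ran from 300 to 2690 CPM under cuprizone, and cuprizone 2 at 300 CPM lay inside the naive range of 80.1 to 488 CPM (2.64 ± 0.50, adjusted p = 0.0141). Sesn2, a stress-induced inhibitor of mTORC1, rose by 1.19 ± 0.24. Asns, the asparagine synthetase that is a standard ATF4 target, was at 0.651 to 3.5 CPM under cuprizone and did not pass (-0.11 ± 0.58, adjusted p = 0.943). Of 21 genes of the ER unfolded protein response, Herpud1 (0.90 ± 0.22) and Hspa5 (0.88 ± 0.21) rose, and Canx, the lectin chaperone calnexin, fell by 0.54 ± 0.13. None of these 3 passed when cuprizone 3 was left out.

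The last 60 bases before the start of Ppp1r15a are shown for the cyclic AMP response element TGACGTCA, which ATF and CREB family factors can bind (chr7:45526269-45526328, minus strand, capitals).
Ppp1r15a: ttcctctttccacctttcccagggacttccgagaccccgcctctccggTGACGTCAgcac
The element lies 12 to 5 bases before the start. The same letters stand 51 to 44 bases before 1 of the 3 RefSeq starts of Nfkbid, which encodes an inhibitor-like partner of NF-kB and whose values follow below (chr7:30422326-30422405, plus strand, the last 80 bases).
Nfkbid: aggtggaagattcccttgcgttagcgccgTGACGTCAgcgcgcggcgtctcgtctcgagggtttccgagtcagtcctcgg
TGACGTCA was found in 1.55% of all windows, and in 2 of the 50 windows of the 35 named genes that rose and had an entry. The other motifs searched on both strands were the AP-1 site TGANTCA (4 of 50 windows, 6.75% of all), the NF-kB site (4 of 50, 1.21% of all), the E-box CACGTG (4 of 50, 6.02% of all) and the CArG box (0 of 50, 1.47% of all).

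Immediate early genes made up the largest group of rises. Of 30 tested, 17 rose and none fell, and the list median was 1.46. Jun (chr4:95049034-95052222, minus strand), the core AP-1 subunit, was at 7416, 6878, 9487 and 11510 CPM in cuprizone 1 to 4 and at 1546 to 3241 CPM (median 3164) in the naive libraries. No values overlapped (1.64 ± 0.20, adjusted p = 0.00171). Jund, a further AP-1 subunit, was at 1323, 1494, 1871 and 2373 CPM against 502 to 952 CPM (1.17 ± 0.18, adjusted p = 0.00555). Klf2, a zinc finger factor, was at 1054, 890, 1081 and 1801 CPM against 145 to 496 CPM (1.59 ± 0.28, adjusted p = 0.0104). Dusp2, a phosphatase that switches off MAP kinases, was at 7.16, 7.36, 23.2 and 30.4 CPM against 1.65 to 4.99 CPM (2.50 ± 0.44, adjusted p = 0.0104).

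Fos, the partner of Jun, was at 2724, 1676, 4475 and 5648 CPM, and cuprizone 2 lay inside the naive range of 308 to 1925 CPM (1.64 ± 0.39, adjusted p = 0.0364). Egr1 was at 1783, 1697, 4043 and 5359 CPM against 543 to 1603 CPM (1.34 ± 0.34, adjusted p = 0.0477). Egr2 rose by 1.60 ± 0.33, Maff by 2.43 ± 0.49, Nr4a3 by 2.37 ± 0.52 and Dusp1 by 1.51 ± 0.30. Fosb did not pass, at 1137 to 2468 CPM against 106 to 815 CPM (1.72 ± 0.51, adjusted p = 0.0925).

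In all 17 of these genes both female cuprizone libraries lay above both male ones, an order that 20.8% of all tested genes had. Set against naive libraries of the same sex, both female cuprizone libraries lay above both female naive ones in 17 of 17 genes, where 26.8% of all tested genes had that order. Both male cuprizone libraries lay above all 5 male naive ones in 9 of 17, where 9.43% of all tested genes did. The numbers of naive libraries differ, so the 2 counts are not compared with each other. In 8 of the 17 all 4 cuprizone libraries lay above all 7 naive ones, against 77.2% of all genes called higher and 3.14% of all tested genes. The 17 genes were called from these same libraries, so their orders against naive libraries are a description and not separate evidence of a rise. Without cuprizone 3 and 4 only 1 of the 17 passed, Jun (1.34, adjusted p = 0.0304); without cuprizone 1 and 2, 18 immediate early genes passed. With sex as a covariate 8 passed. The part of sex or of the non-coding share in this order was not tested.

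NF-kB and cytokine genes had the same order of libraries. Of 31 tested, 6 rose and none fell (median 0.59), and all 6 were higher in both female than in both male cuprizone libraries. Nfkbid was at 56.3, 37.1, 226 and 252 CPM in cuprizone 1 to 4 and at 23.2 to 47.8 CPM in the naive libraries (2.16 ± 0.42, adjusted p = 0.0174). Cuprizone 2 lay inside the naive range. Il1a, an interleukin that microglia can release after injury, was at 175, 116, 398 and 508 CPM against 77.1 to 127 CPM (1.43 ± 0.31, adjusted p = 0.0243). Ptgs2, which makes prostaglandins, was at 3.5 to 19.2 CPM against 1.03 to 2.7 CPM (2.41 ± 0.45, adjusted p = 0.0135), and Nfkb2, an NF-kB subunit, at 54.0 to 104 CPM against 29.5 to 51.9 CPM (0.94 ± 0.21, adjusted p = 0.0278). Tnfaip3, which encodes the NF-kB inhibitor A20, rose by 1.36 ± 0.34. Tnf (1.54 ± 0.49, adjusted p = 0.116), Il1b (1.88 ± 0.90, adjusted p = 0.289) and Nfkbia (1.40 ± 0.41, adjusted p = 0.0867) did not pass. No gene of this list passed without cuprizone 3 and 4, or without cuprizone 4 alone, and 10 passed without cuprizone 1 and 2.

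Of 19 genes of the chemokine list, 4 rose and none fell (median 0.76). Ccl4 (chr11:83662584-83664683, plus strand), a chemokine of the CC class, was at 158, 55.3, 368 and 472 CPM in cuprizone 1 to 4. The naive libraries held 17.0 to 63.3 CPM with a median of 33.7, so cuprizone 2 overlapped with them (2.89 ± 0.47, adjusted p = 0.00668). Ccl3, its close relative, was at 297, 92.8, 868 and 1093 CPM against 33.5 to 168 CPM (2.65 ± 0.52, adjusted p = 0.0174). Ccl2, the monocyte attractant, was at 27.0, 31.5, 109 and 138 CPM against 5.5 to 22.4 CPM (2.49 ± 0.47, adjusted p = 0.0151). The atypical receptor gene Ccrl2 was at 81.7, 48.3, 160 and 244 CPM against 31.7 to 39.0 CPM (1.94 ± 0.31, adjusted p = 0.00608). Ccl12 did not pass (0.82 ± 0.30, adjusted p = 0.169). None of the chemokine genes passed without cuprizone 3 and 4, where Ccl4 had a log2 fold change of 1.59 (adjusted p = 0.17), and 5 passed without cuprizone 1 and 2.

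Of 29 disease-associated microglia genes tested, 3 rose, Gpnmb, Apoe and Csf1, and none fell, beside 2.47% of all tested genes called higher. The list median was 0.01. Gpnmb (chr6:49036546-49070929, plus strand), a lysosomal glycoprotein gene of lipid-laden phagocytes, was at 18.2, 2.8, 17.0 and 36.9 CPM in cuprizone 1 to 4. No naive library held more than 1.43 CPM and the lowest had 0 (4.85 ± 0.69, adjusted p = 0.00408). Apoe, the lipid carrier, was at 3598, 1554, 2637 and 5536 CPM against 812 to 2089 CPM (1.38 ± 0.31, adjusted p = 0.0285). Cuprizone 2 lay inside the naive range and was the lowest cuprizone library for Gpnmb, Apoe and Csf1, the ligand of CSF1R (1.25 ± 0.31, adjusted p = 0.0419). Apoe did not pass with all 13 naive Het libraries (1.03, adjusted p = 0.0767). Neither Apoe nor Csf1 passed with sex as a covariate, or when cuprizone 1, 3 or 4 alone was left out.

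Spp1, the osteopontin gene, was at 81.7, 15.4, 72.3 and 171 CPM against 19.5 to 84.4 CPM and did not pass (1.12 ± 0.50, adjusted p = 0.255). Itgax was at 70.6, 23.1, 66.1 and 102 CPM against 19.9 to 51.5 CPM (1.06 ± 0.34, adjusted p = 0.116). Igf1 (1.28 ± 0.39, adjusted p = 0.104), Fabp5 (1.32 ± 0.56, adjusted p = 0.232) and Lgals3 (0.84 ± 0.36, adjusted p = 0.232) did not pass, with cuprizone 2 the lowest cuprizone library in each. The standard errors of these 5 genes were 0.34 to 0.56, so rises of about this size could not be separated from the spread between libraries. Lpl (0.55 ± 0.29), Cst7 (0.50 ± 0.43), Axl (-0.32 ± 0.30), Cd9 (0.10 ± 0.18) and Trem2 (0.08 ± 0.19) did not pass either. Clec7a, which 2 rows of the table share as a symbol, was at 22.8 to 153 CPM against 55.7 to 162 CPM in its row ENSMUSG00000079293 (-0.05 ± 0.39). Only Gpnmb among the 3 that rose had no overlap between groups, and no gene of the list passed without cuprizone 3 and 4, while 3 passed without cuprizone 1 and 2.

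Of 34 homeostatic genes, Jun and Egr1, which also count as immediate early genes, rose and Tgfbr1 fell. Over all tested genes, 2.47% were called higher and 0.912% lower. Tgfbr1, the receptor for the TGF-beta signal that maintains microglia, was at 1972, 1845, 1833 and 1621 CPM against 2128 to 2729 CPM in the naive libraries (-0.42 ± 0.10, adjusted p = 0.0406). Its fall did not pass when any 1 cuprizone library was left out. Tmem119 was at 936 to 1008 CPM under cuprizone and 1066 to 1517 CPM in the naive libraries, without overlap, and did not pass (-0.26 ± 0.11, adjusted p = 0.243). Cx3cr1 (-0.16 ± 0.10), Gpr34 (-0.33 ± 0.14), Sall1 (-0.03 ± 0.09) and Mertk (0.08 ± 0.11) did not pass. Their standard errors ran from 0.09 to 0.14.

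**Figure D2:**
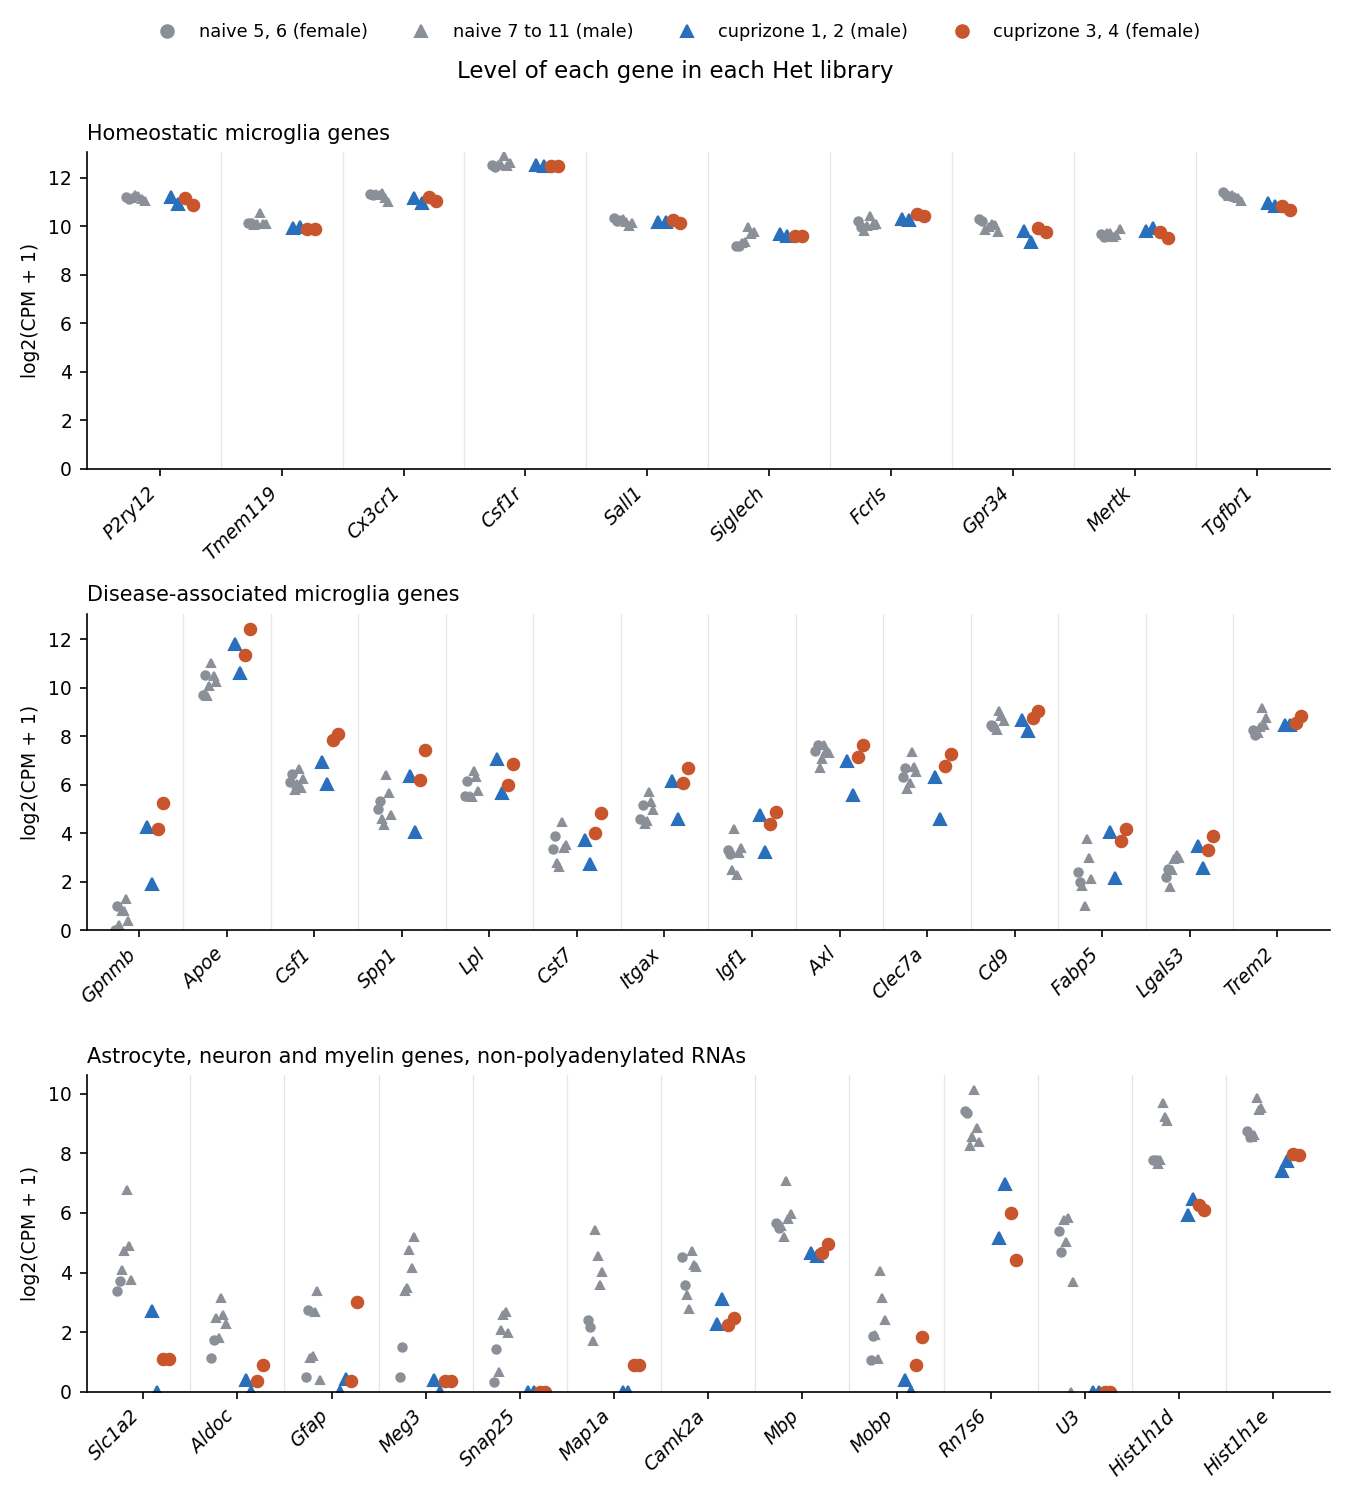
Each point is 1 Het library with log2(CPM + 1) on the vertical axis, in the same colours as the plot of stress genes, for microglial identity genes, disease-associated genes, and RNAs of other brain cells or without a poly(A) tail. Gpnmb and Tmem119 separate the groups, P2ry12 and Csf1r do not, and Snap25 and the U3 row are at 0 in all 4 cuprizone libraries.

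Of 27 genes of antigen presentation tested, 3 rose and none fell (median -0.01). They were the class I genes H2-Q4 (73.2, 80.2, 108 and 132 CPM against 40.9 to 56.0; 1.10 ± 0.16, adjusted p = 0.00458), H2-Q6 (1.33 ± 0.24, adjusted p = 0.0117) and H2-K1 (0.74 ± 0.17, adjusted p = 0.03), each higher in both female than in both male cuprizone libraries, and none passed without cuprizone 3 and 4, while 4 genes of the list passed without cuprizone 1 and 2. These genes resemble each other closely, so the counting may have divided reads among them. The class II genes H2-Aa (-0.96 ± 0.29, adjusted p = 0.0931), H2-Eb1 (-0.90 ± 0.29, adjusted p = 0.117) and Cd74 (-0.57 ± 0.26, adjusted p = 0.277) did not pass. Of 33 interferon response genes only Irf1 rose, at 82.0 to 93.9 CPM against 48.3 to 69.1 CPM (0.61 ± 0.12, adjusted p = 0.0201). C4b, a complement component, was the only 1 of 16 complement genes to change, at 18.1 to 32.2 CPM against 39.8 to 106 CPM (-1.39 ± 0.28, adjusted p = 0.0188). Neither Irf1 nor C4b passed without either pair of cuprizone libraries. Over all tested genes, 2.47% were called higher and 0.912% lower, so 1 call in 33 or in 16 genes says little about either list.

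The metabolic lists stand beside the 3.38% of all tested genes that were called. None of 24 cholesterol synthesis genes passed, with a median of -0.37, against -0.04 for all genes, and 17 of 24 values below 0. Cyp51, an enzyme of the lanosterol step, was at 8.13 to 14.0 CPM against 14.2 to 44.1 CPM (-1.07 ± 0.34, adjusted p = 0.117). Its groups did not overlap. Of the cholesterol efflux genes Abca1 (-0.29 ± 0.15) and Abcg1 (-0.28 ± 0.10) did not pass, and the Apoe rise is given above.

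None of 55 nuclear oxidative phosphorylation genes (median -0.03) and none of 13 mitochondrial DNA genes (median -0.20) passed. Hmox1, the heme oxygenase induced by oxidative stress, was the only 1 of 24 NRF2 and iron genes to rise, at 94.0, 46.6, 38.8 and 59.9 CPM against 16.3 to 28.4 CPM (1.43 ± 0.23, adjusted p = 0.00608). No overlap was seen, but Hmox1 did not pass with all 13 naive Het libraries. No copper handling gene passed (0 of 15): the copper exporter Atp7a had -0.58 ± 0.16 (adjusted p = 0.0649), the importer Slc31a1 -0.12 ± 0.19 and the metallothionein Mt1 0.43 ± 0.23. Of 37 lysosome genes, Sqstm1 (0.89 ± 0.18), the autophagy receptor p62, and Gla (2.16 ± 0.55) rose and Lamp2 fell by 0.42 ± 0.10. Gla and Lamp2 did not pass when any 1 cuprizone library was left out, and Sqstm1 did not without cuprizone 3 or without cuprizone 4. For Gla, naive 7 at 41.3 CPM lay inside the cuprizone range. Cdkn1a, the cell cycle inhibitor p21, was the only 1 of 33 cell cycle genes to rise (1.83 ± 0.37, adjusted p = 0.0195), and Mki67 did not pass (-0.37 ± 0.35). The rise of Cdkn1a did not pass without cuprizone 3, without cuprizone 4, with sex as a covariate or with all 13 naive Het libraries.

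**Figure D3:**
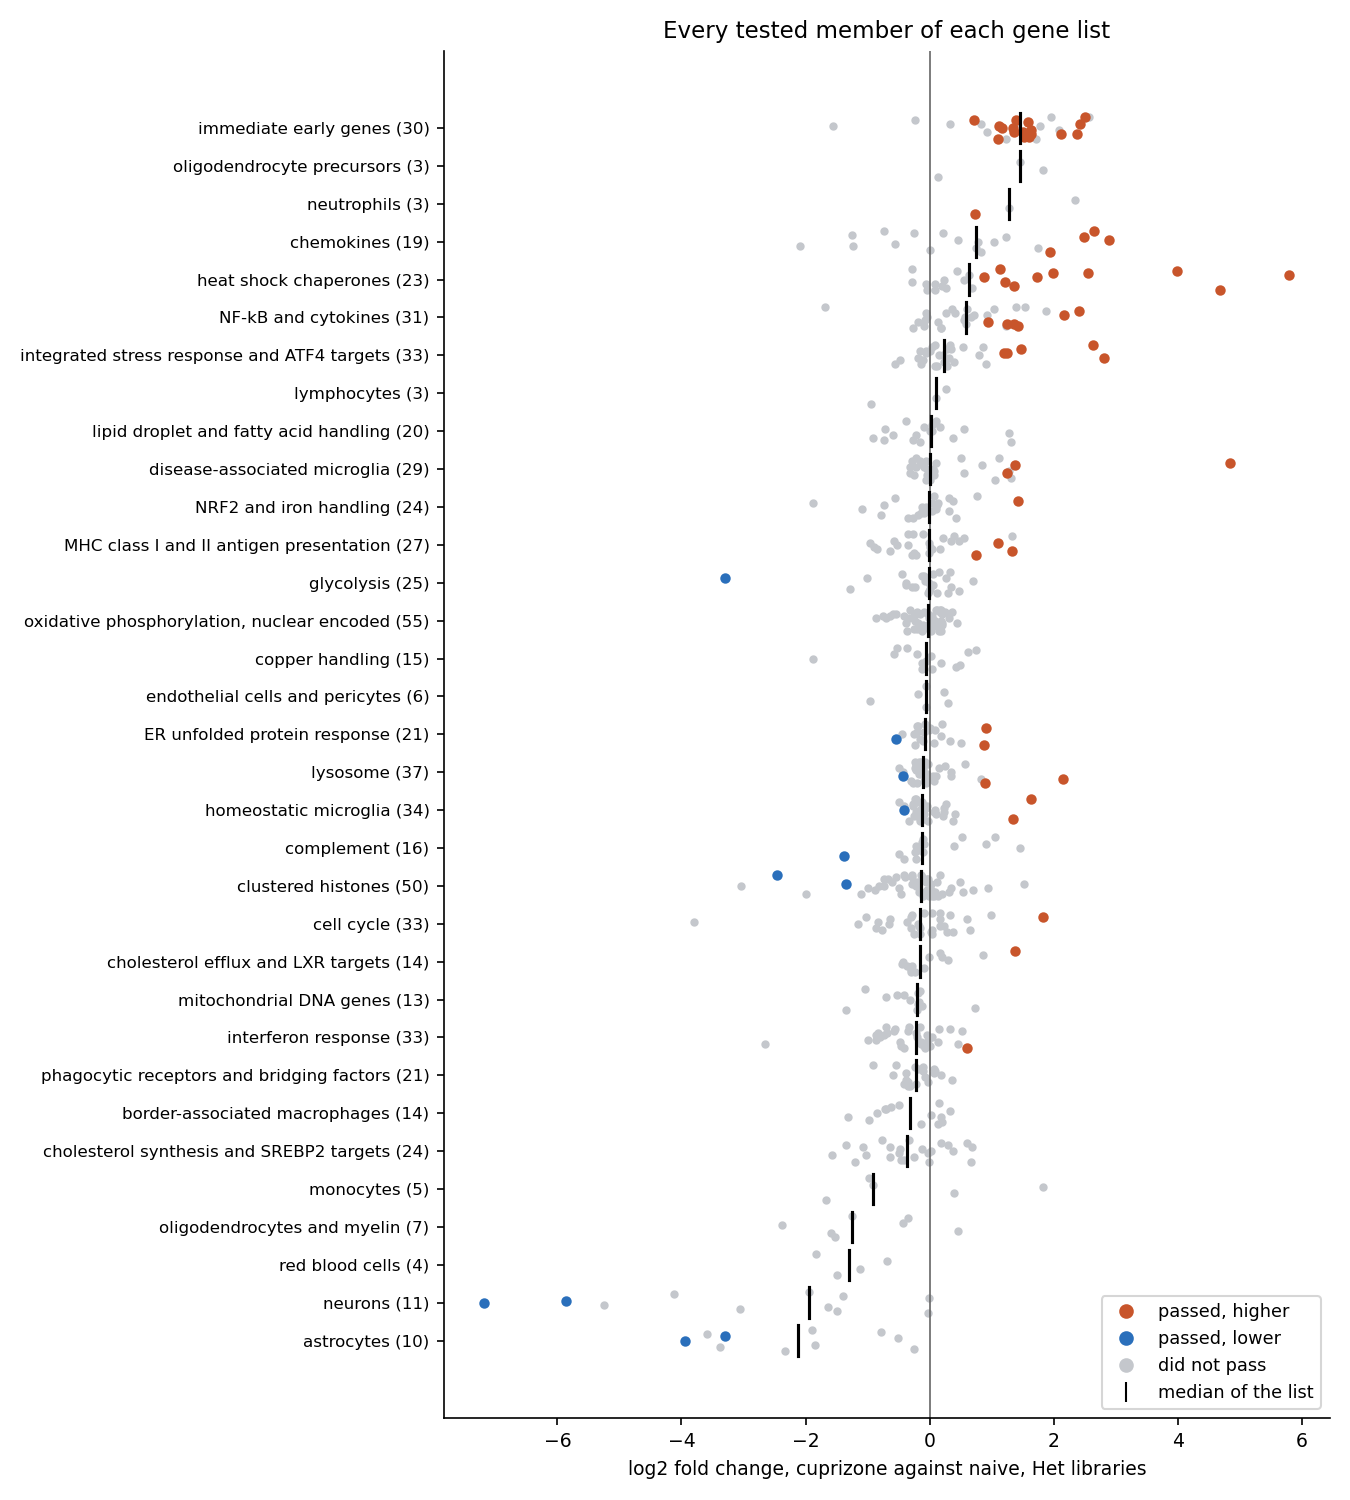
Each point is a tested gene, placed at its log2 fold change on the horizontal axis within 1 of the gene lists named on the vertical axis (number tested in brackets). Filled colours mark genes that passed and black bars the list medians, which run from -2.12 for astrocyte genes to 1.46 for immediate early genes.

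Csf3r, the G-CSF receptor known from neutrophils, rose, and it passed under every alternative run, as did Hspa1a, Hsp90aa1, Dnajb1 and Ppp1r15a. It was at 637, 760, 636 and 582 CPM in cuprizone 1 to 4 and 359 to 451 CPM in the naive libraries (0.73 ± 0.10, adjusted p = 0.00412). It passed without cuprizone 3 and 4 (0.83) and without cuprizone 1 and 2 (0.64). Of the 13 neutrophil genes listed, 3 were tested and Csf3r made up nearly all of the summed level (593 to 775 CPM under cuprizone, 364 to 454 CPM in the naive libraries). Granule genes were near 0: Ly6g had 0 counts in all 11 libraries, S100a8 was at 0.976 to 2.1 CPM under cuprizone and 0 to 1.03 in the naive libraries, and Ngp at 0.7 to 5.53 CPM against 0 to 1.23. No monocyte gene (0 of 5 tested), lymphocyte gene (0 of 3) or border macrophage gene (0 of 14) passed. The border macrophage gene Mrc1 was at 49.6 to 208 CPM against 96.8 to 357 CPM (-0.63 ± 0.41), and values of its list by sex are given below.

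Some astrocyte and neuron transcripts were lower in the cuprizone libraries. Of 17 astrocyte genes 10 could be tested and 2 fell, while 0.912% of all tested genes were called lower. Of 18 neuron genes 11 could be tested and 2 fell. All tested genes of these 2 lists had values below 0, with medians of -2.12 for astrocyte and -1.94 for neuron genes. The count filter can keep a gene through the naive libraries alone, as it did for Snap25. These directions and medians may thus be partly set by the filter, and they describe only the genes that could be tested. None of 6 endothelial and pericyte genes passed (median -0.06), and none of 3 oligodendrocyte precursor genes, whose values lay above 0 (Vcan 1.83 ± 0.70, adjusted p = 0.187; Cspg4 1.46 ± 0.51, adjusted p = 0.156). In bulk samples, fewer cells of a type and less RNA per cell cannot be told apart. Summed over each list, astrocyte genes came to 126 to 151 CPM under cuprizone and 164 to 327 CPM in the naive libraries, and neuron genes to 199 to 349 CPM and 272 to 451 CPM. Slc1a3 made up most of the astrocyte sum under cuprizone, at 113.5 to 142 CPM as scaled in the fit by sex. It did not pass (-0.25 ± 0.135, adjusted p = 0.351), so the sum says little about the other astrocyte genes. The astrocyte genes Ntsr2, Aqp4, Gjb6 and Slc4a4 and the neuron genes Snap25, Stmn2, Tubb3 and Gad1 were at 0 in all 4 cuprizone libraries. So were 9 of 18 lymphocyte genes and 3 of 20 myelin genes, but 0 of 14 border macrophage genes. The share over all genes was not counted. At the lower depth of the cuprizone libraries, 0 counts of a rare transcript do not by themselves show a fall.

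Slc1a2, the glutamate transporter of astrocytes, was at 5.53, 0, 1.13 and 1.15 CPM in cuprizone 1 to 4 and at 9.44 to 107 CPM in the naive libraries (-3.95 ± 0.93, adjusted p = 0.0368). Aldoc, an astrocyte aldolase, was at 0 to 0.859 CPM against 1.21 to 7.89 CPM (adjusted p = 0.031). Meg3, a neuronal non-coding RNA, was at 0 to 0.325 CPM against 0.404 to 35.9 CPM (adjusted p = 0.0286). Map1a, a microtubule protein of neurons, was at 0 to 0.859 CPM against 2.28 to 41.8 CPM (adjusted p = 0.0275). Snap25, a synaptic vesicle fusion gene, had 0 counts in all 4 cuprizone libraries and 0.27 to 5.39 CPM in the naive ones, which makes it at least 2.94-fold lower at a floor of 3 counts per library (adjusted p = 0.0437). The highest naive library for Slc1a2, Mbp and Mobp was naive 9. None of these 5 calls held in every run that left out 1 library, and none held without either pair of cuprizone libraries.

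Myelin transcripts can reach sorted microglia inside phagocytosed debris as well as in stray cells. Mbp, the myelin basic protein gene, was at 24.4, 22.8, 24.4 and 30.4 CPM under cuprizone and at 35.2 to 132 CPM (median 50.0) in the naive libraries. The groups did not overlap, but the difference did not pass (-1.25 ± 0.33, adjusted p = 0.0563). Of 7 myelin genes tested 6 had values below 0 and none passed, with a median of -1.25.

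Some short structured RNAs were lower as well. Of 125 annotated snRNAs, snoRNAs, rRNAs and other small RNAs that were tested, a set formed after their values had been seen, none passed as higher, 7 passed as lower, and 110 had values below 0 (median -0.83). Over all tested genes, 0.912% were called lower and the median was -0.04. Low medians were not particular to these RNAs: the 445 transcripts annotated as TEC had -0.667 and the 70 sense intronic ones -0.597. The 11000 protein-coding genes had a median of -0.0151 and the 153 antisense RNAs 0.132. The count filter can keep a rare RNA through the naive libraries alone, as for the snRNA Gm22866 with 0 in all 4 cuprizone libraries. The 110 values below 0 and the class medians may thus be partly set by the filter. Some abundant RNAs of this set did not pass, among them Rn7sk (-0.0036 ± 0.20), Rpph1 (0.06 ± 0.15) and n-R5-8s1 (-0.90 ± 0.26, adjusted p = 0.0872). Others passed as lower, such as the snRNA Gm22513 (-1.69 ± 0.38, adjusted p = 0.0295) and the rRNA Rn18s-rs5 (-1.70 ± 0.37, adjusted p = 0.0261). Rn7s6, a 7S RNA gene, was at 35.1, 125, 63.2 and 20.3 CPM in cuprizone 1 to 4 and at 305 to 1098 CPM in the naive libraries (-3.20 ± 0.52, adjusted p = 0.0066). The U3 row ENSMUSG00000105025, a snoRNA, had 0 counts in all 4 cuprizone libraries and also in naive 10, and 12 to 56.4 CPM in the other 6 naive libraries. At the same floor this row was at least 33.6-fold lower, but counting may divide reads among U3 rows. Row ENSMUSG00000104856 was at 28.1 CPM in cuprizone 3 and 0 in cuprizone 1, 2 and 4. The fall of ENSMUSG00000105025 did not pass when any 1 cuprizone library was left out. Nor did it pass with sex as a covariate or with all 13 naive Het libraries (adjusted p = 0.213). Of 5 linker histone genes tested, whose transcripts lack a poly(A) tail, 2 fell. Hist1h1d was at 59.9, 87.2, 75.7 and 67.3 CPM against 197 to 819 CPM (-2.47 ± 0.44, adjusted p = 0.0117), and Hist1h1e at 169 to 249 CPM against 373 to 918 CPM (-1.35 ± 0.27, adjusted p = 0.0194). Hist1h1e did not pass when any 1 of the 4 cuprizone libraries was left out, and neither gene passed without either pair. Hist1h1a, Hist1h1b and Hist1h1c did not pass. The other 48 clustered histone genes tested did not pass, and reads may be shared among such near-identical genes. With all 13 naive Het libraries Hist1h1d had -1.64 (adjusted p = 0.553) and Rn7s6 -3.23 (adjusted p = 0.329). Yam1 in its main row (ENSMUSG00000098178) fell by 0.84 ± 0.20, and Gm26917 did not pass (-0.34 ± 0.24). The called RNAs, the depth and the called astrocyte and neuron genes differed between the groups, and what part any of them has in the other results was not tested.

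A few large rises rested on some of the libraries. Ece1, an endothelin-converting enzyme gene, was at 13.01, 263, 237 and 11.2 CPM in cuprizone 1 to 4, so 2 of them lay inside the naive range of 8.35 to 24.9 CPM. Rpp40, a subunit of RNase P, was at 48.2, 0.701, 16.7 and 20.6 CPM against 1.23 to 3.85 CPM, with cuprizone 2 below every naive library. Gadd45b, a stress-induced gene, was at 22.4, 4.9, 38.3 and 58.4 CPM against 1.54 to 7.52 CPM (2.87 ± 0.51, adjusted p = 0.0114). Without cuprizone 2, or without cuprizone 3, Ece1 did not pass, and without cuprizone 1 Rpp40 did not. Among the falls, Syne2 (-2.44 ± 0.59) had cuprizone 2 and 4 inside the naive range and Tulp3 (-2.40 ± 0.51) cuprizone 1.

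The same comparison in mice labelled RISP KO, in which 6 cuprizone libraries (3318000 to 5100363 counts) were set against 6 naive libraries numbered 6 to 11 (7275399 to 11416689 counts), called 95 of 11520 genes (0.825%), 42 higher and 53 lower. It shares no library with the Het comparison. Every KO cuprizone library also held fewer counts than every KO naive one, so treatment and depth cannot be told apart there either. By the Y-linked counts, 4 of the KO cuprizone libraries were female and 2 male, against 1 female and 5 male KO naive libraries, and the part of this imbalance in the KO values and in the test of Het against KO was not tested. Of the 426 genes called in Het, 405 were tested in KO, 386 had the same direction and 36 were called in both, which is 8.45% of the Het calls and 37.9% of the KO calls. The share of same directions over all genes tested in both was not counted, so the 386 have no background here. Because both comparisons hold a depth gap of the same direction, shared direction is a description only. Hspa1a was at 4.71 ± 0.69 in KO (adjusted p = 0.0119) beside 4.69 ± 0.42 in Het, and Hspa1b at 4.50 ± 0.58 (adjusted p = 0.00432) beside 5.80 ± 1.07. Atf4 (0.66 ± 0.11), Ddit3 (0.95 ± 0.18), Csf3r (0.60 ± 0.10) and Ccl2 (3.52 ± 0.76) also passed in KO. Ppp1r15a (2.26 ± 0.61, adjusted p = 0.0949), Jun (1.44 ± 0.60, adjusted p = 0.254), Ccl4 (2.59 ± 0.80, adjusted p = 0.136) and Gpnmb (2.01 ± 0.68, adjusted p = 0.17) did not.

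When the difference between the Het and the KO response was tested over all 23 libraries, 1 of 13421 genes passed (0.00745%), and 820 had an unadjusted p under 0.05. That gene was Hsp90aa1, whose response was larger in Het by 1.57 ± 0.26 (adjusted p = 0.0365). In KO it was at 0.41 ± 0.14 (adjusted p = 0.188). Without Het cuprizone 1, or without Het cuprizone 2, which had the 2 highest values, no gene passed this test. For the other genes a difference between the genotypes was not shown, which does not mean that they responded alike: for Gpnmb, Hmox1, Nfkb2 and H2-K1 the adjusted p of the difference was 0.634 to 0.723.

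**Figure D4:**
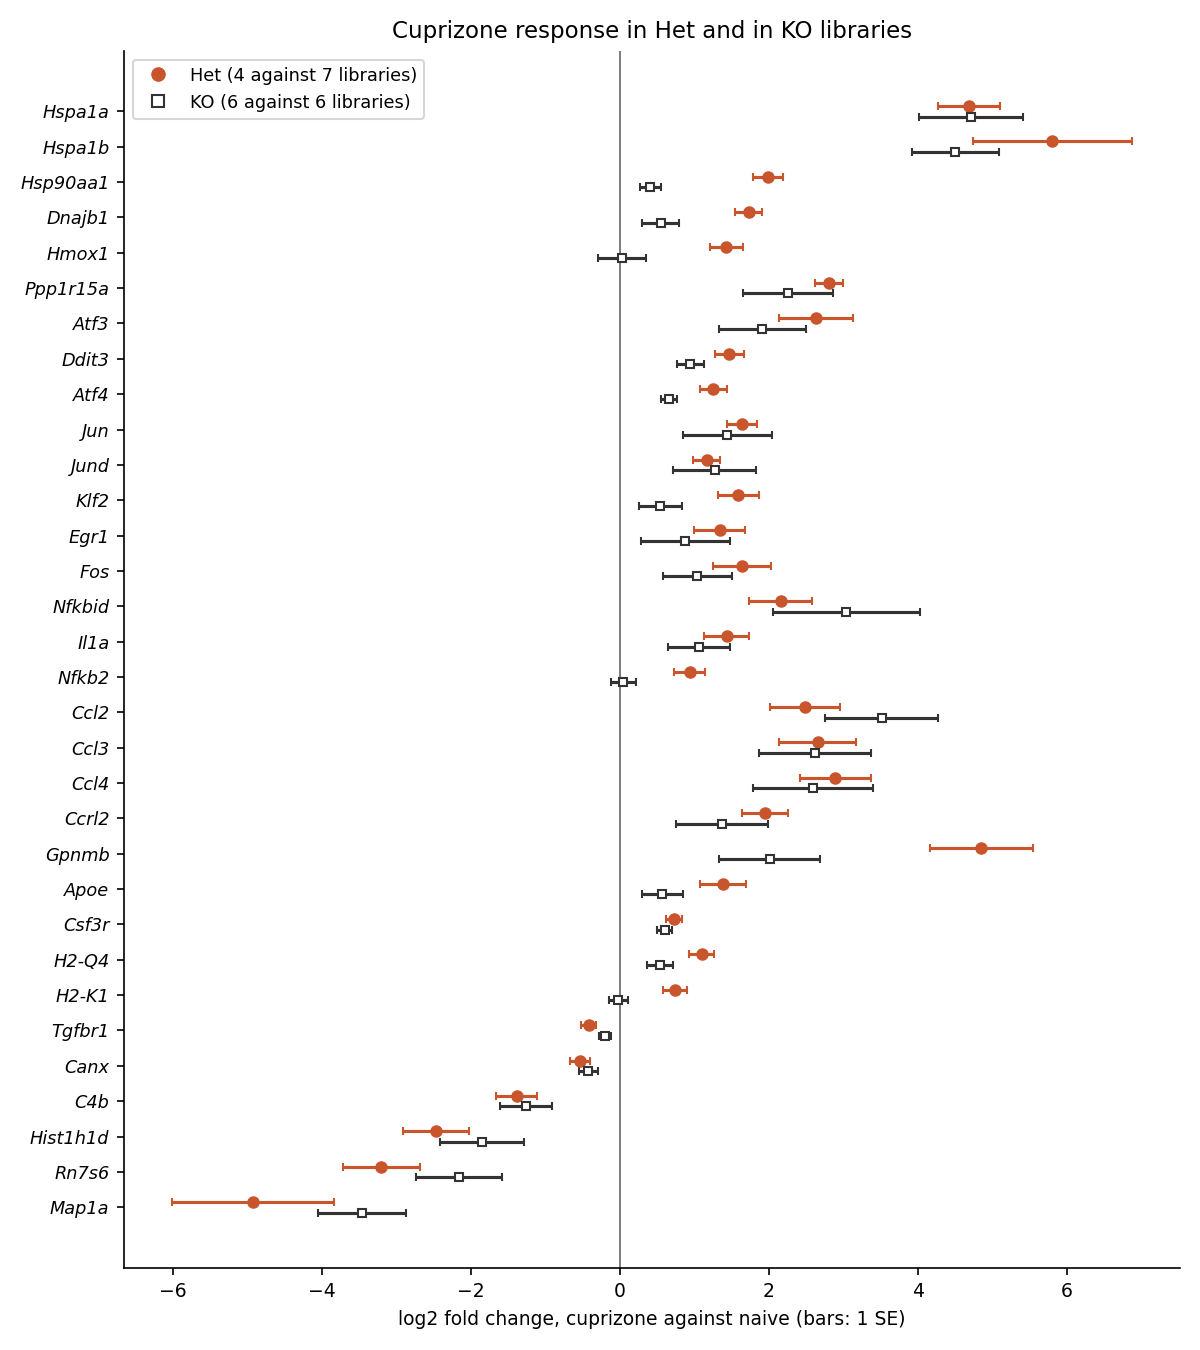
Log2 fold change of cuprizone against naive with 1 standard error to each side for named genes, in Het (orange circles, 4 against 7 libraries) and in KO (open squares, 6 against 6 libraries). Hspa1a lies at 4.69 in Het and 4.71 in KO, while Hsp90aa1 lies at 1.99 and 0.41.

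The response of the sexes within Het was compared after the split among the cuprizone libraries had been seen, with 2 against 2 female and 2 against 5 male libraries. Of 13773 genes, 5 differed (0.0363%), and none of them belongs to a list. Hspa1a was called in each sex, with 4.56 ± 0.65 in females (adjusted p = 0.0334) and 4.98 ± 0.45 in males (adjusted p = 0.000943). Ppp1r15a was called in each as well, with 2.95 ± 0.28 (adjusted p = 0.00464) and 2.53 ± 0.21 (adjusted p = 0.000835). Nfkbid was called in females (3.15 ± 0.34, adjusted p = 0.00883) and not in males (0.47 ± 0.27, adjusted p = 0.502), and its difference of 2.69 ± 0.44 did not pass (adjusted p = 0.137). The border macrophage gene Cd163 had -2.18 ± 0.36 in females (adjusted p = 0.049) and 0.20 ± 0.28 in males. Mrc1 had -2.17 ± 0.38 (adjusted p = 0.0579) and 0.34 ± 0.30, while Stab1 had -0.03 ± 0.29 and 0.36 ± 0.24. The difference did not pass for Cd163 or Mrc1 (adjusted p = 0.308 for both) or for Stab1 (adjusted p = 0.851). Female minus male, it was below 0 for every border macrophage gene, from -0.39 (Stab1) to -5.12 (Cd209f), and passed for none. The mean log2 CPM of this list was 2.35 and 3.14 in the female cuprizone libraries and 4.31 and 4.59 in the female naive ones. In males it was 3.48 and 4.14 under cuprizone and 2.90 to 3.76 in the naive libraries.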

How the data were processed

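The deposited table holds raw counts per gene and library (45708 rows, 64 libraries), whole numbers whose totals differ between libraries. Build GRCm38 and the tools Salmon 1.5.2, STAR 2.6.1d, bcl2fastq 2.20 and Trim Galore 0.6.7 are named in the submitters' processing notes. Which of these made the counts, and the strand setting, are not given in the sources used here. Libraries were grouped by genotype, treatment and age group in the labels. Genes were kept with edgeR's filterByExpr (minimum count 10, minimum total 15), scaled by TMM and tested with glmQLFit and glmQLFTest (edgeR 4.0.16, R 4.3.3, two-sided, 1 mean per group, only the libraries compared). Adjusted p-values are Benjamini-Hochberg values over all genes of the fit. A library with more than 20 counts on 4 Y-linked genes was read as male. DESeq2 1.42.0 and limma 3.58.1 served as alternatives. The mean of the within-sex differences and the test of the sexes were added after seeing the data. The fit was tested on simulated counts. The libraries, the 33 gene lists and the tests were chosen with earlier results of these data known. Genes were named by rule: the 8 largest rises and falls among called genes whose mean log2 CPM reached 3 (no Gm-numbered or Rik symbols), up to 4 called members of each list, and other list members with their values, called or not. Coordinates are from GENCODE M21 (GRCm38) and promoter windows from RefSeq (GRCm38.p6).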

Additional observations from a re-analysis of the deposited data

Results flagged for a closer look

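Among 224 checks of single libraries within a group, 20 values stood apart from the rest of their group by Dixon's criterion, where chance gives about 1 in 20 (11.2). In cuprizone 2, Ctsb (1247 CPM against 1648 to 1684 in the other 3) and Meg3 (0 against 0.284 to 0.325) were low and Syt1 (0.35 against 0) was high. Csf1r was high in cuprizone 1 (5945 against 5724 to 5750), Gfap in cuprizone 4 (7.16 against 0 to 0.35), and the smaller Yam1 row (ENSMUSG00000105361) was at 0 in cuprizone 3. In naive 9, Csf1r (7557 CPM), Tmem119 (1517), Mbp (132) and Mt1 (29.4) were the highest naive values. In naive 10, Fos (308), Jun (1546), Klf2 (145) and Il1a (77.1) were the lowest, and the U3 row was at 0. In naive 11, Bag3 (89.8) and Hspa5 (1831) were the highest and Slc31a1 (15.8) the lowest. Gla was high in naive 7 (41.3 CPM against 4.07 to 10.9), where the smaller Yam1 row was at 0.

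The Het response differed from the KO response for Hsp90aa1, by a tested difference of 1.57 on the log2 scale. The female response differed from the male one for 5 genes. Eif1ax (difference 3.82) was at 6.21 and 11.5 CPM of the library total in the male cuprizone libraries and 7.55 and 6.72 in the female naive ones, against 20.8 to 27.3 in the female cuprizone and 30.1 to 40.4 in the male naive libraries. Gm28036 (-1.91) was at 106 and 114 in the male cuprizone and 69.1 and 88.3 in the female naive libraries, against 41.8 to 56.9 in the other 7. Cuprizone 1 and 2 were thus nearer to naive 5 and 6 than to naive 7 to 11 for both genes. Reck (-6.09) was at 20.1 and 41 in naive 5 and 6 and at 0.599 to 8.82 elsewhere. Gm24950 (12.25) and Gm23849 (12.18) had 0 counts in cuprizone 1 and 2 and at least 56.8 in each other library, so their fitted differences depend on the prior count. No cause was tested for any of these.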

How the results depend on the processing

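The 426 calls of the Het comparison became 884 with DESeq2's Wald test, 965 with limma-voom and sample weights (635 higher, 330 lower), and 697 with all 64 libraries in the fit, of which 319 were higher and 378 lower, against 311 and 115. DESeq2's Wald test also had a lower share of higher calls (508 to 376). They became 71 without cuprizone 3 and 4 and 183 without cuprizone 1 and 2. With 1 library left out they ranged from 177 (without cuprizone 3) to 609 (without naive 9). The other 8 alternatives gave 308 to 457. Cuprizone 1 to 4 share no replicate numbers with naive 5 to 11. With all 13 naive libraries and a replicate block, numbers 1 to 4 pair libraries across batches by number only, and 7712 genes passed. There, log2 fold changes turned sign for Cdkn1a (-0.049), Clec7a (1.64), Fcrls (-1.24), Gm26917 (6.20), Hist1h1d (7.04), Hist1h1e (8.30), Meg3 (1.96), Mki67 (1.61), Rn7s6 (8.61), Syne2 (0.15), Trem2 (-1.48) and both Yam1 rows (4.52 and 9.51), and the cause was not tested. The 95 KO calls became 492 with DESeq2 and 17 after thinning. The single call of the difference between Het and KO became 9 with DESeq2, 3 without a filter and 2 after thinning, and ranged from 0 to 3 with 1 library left out. Of 54 genes named by rule, 46 no longer passed without cuprizone 3 and 4, 18 without cuprizone 1 and 2, 22 with all 13 naive libraries, 20 with sex as a covariate and 6 of 51 after thinning. The depth of the cuprizone libraries, 2695432 to 3657793 counts, limits what can be seen of genes near 1 CPM.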
